A study of Homo sapiens with 14 samples.

Results

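ICG-001 was given to Mel202 cells at 3 µM for 48 h, and gene expression was set against that of Mel202 cells given DMSO, its solvent, for 48 h. Of the 14 arrays in the series, 7 were assigned to this comparison by their treatment labels, 4 with ICG-001 at 48 h and 3 with DMSO at 48 h. The other 7 arrays, 4 with ICG-001 and 3 with DMSO, were taken at 24 h. Their values are set against the 48 h values only where the times are compared. They also share in the normalization, the choice of probes and the estimate of the spread behind every SE and p-value at 48 h. Mel202 is an established human uveal melanoma line, derived from a recurrent tumour that had been irradiated, so every value describes 1 line. All groups share its mutated GNAQ, which encodes a G protein alpha subunit, and its unmutated BRAF. Titles with a shared number and the letters a and b joined ICG-001 arrays 3 and 4 into a pair and DMSO arrays 1 and 2 into a pair. Nothing in the labels says that the arrays of a pair, or the replicates, were separate cultures. Each pair was therefore averaged, which left n = 3 for ICG-001 and n = 2 for DMSO, so the spread that the p-values rest on is that of these samples and may be technical.

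ICG-001 is a small molecule that binds CBP, a transcriptional coactivator and histone acetyltransferase, and blocks its contact with beta-catenin while sparing that of its relative p300. Beta-catenin, CREB and many other factors recruit CBP to genes, among them those of the Wnt pathway. ATF4, a factor that CBP and p300 also bind, is translated preferentially when a cell senses a lack of amino acids or another stress through phosphorylation of eIF2 alpha. It then turns on genes that make, import and charge amino acids. Misfolded protein in the endoplasmic reticulum feeds into the same route through PERK and, through ATF6 and XBP1, raises the chaperones of that compartment.

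Between 18000 and 19585 probes were above background on the ICG-001 arrays at a detection p-value below 0.05, against 18332 to 19986 on the DMSO arrays. The first principal component of the 7 arrays held 48.4% of the variance and put the 4 ICG-001 arrays on one side and the 3 DMSO arrays on the other. The second held 24.8% and set apart the b arrays, ICG-001 array 4 and DMSO array 2, on which fewer probes were detected at a p-value below 0.01 (13608 and 13787, against 15294 to 17374 on the other 5). The markers of the labelled cell type were present. Of 11 melanoma markers, 9 had a named probe, and all 9 were above background on at least 1 array of each group.

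After 48 h, 3010 of the 11679 genes tested (25.8%) had passed the test, limma's moderated test at a Benjamini-Hochberg adjusted p below 0.05. Of these, 1640 rose (14% of the genes tested) and 1370 fell (11.7%). By at least 2-fold, 205 genes rose (1.76%) and 158 fell (1.35%). The median log2 change over all genes tested was 0.01. In these bulk samples fewer cells of a kind and less RNA per cell cannot be told apart. The replicates of the groups did not overlap for 6354 genes (54.4%). The 4 and 3 single arrays did not overlap for 4610 genes (39.5%). The 20 largest rises and 20 largest falls named below were taken only from genes whose replicates did not overlap. For these genes a lack of overlap between replicates was set by the choice. The number called was 1398 without the DMSO pair and 1739 without DMSO array 3. It was 4518 with the letter b as a term of the model. Values below are normalized log2 signals of 1 probe per gene, and log2 changes are ICG-001 minus DMSO with the SE of the fit. Of the 295 named genes past the threshold, 141 had a log2 change over 1.5 times smaller in a fit of the authors' own value table. That value is given where this holds and the gene's own change is printed. Counts of list members of 3 or more that moved by over 1.5 times with a replicate or the b arrays left out, with 75th percentile scaling or in the authors' table are given with the list. Levels of different genes are not compared, because each probe has its own response. Where a named gene whose log2 change is printed had other probes they are described with it, and second probes of HYOU1, CANX, SPCS3, CENPA, LEF1, CCN2, RAB27A, HK2 and RPL37 and both other probes of MYOF had the same sign as the value given but did not pass. Genes named only to complete a count (GOT2, CEBPD, DNAJC10, B2M, IRF9, IFIT1, IFIT3 and IFITM3), and list members named as not passing other than the fixed genes, were chosen after their values were seen. Counts of 1 or 2 members rest on single calls, which can be lost with 1 replicate. Some genes are members of more than 1 list, so counts of different lists are not separate observations. Among those that rose, BIRC5 is in the mitosis, apoptosis inhibitor and Wnt lists, and GADD45A in the p53, YAP and JNK lists. LEF1 and CD44 are likewise in the Wnt list and 1 other. Every count of list members below is to be read beside the 14% of all genes that rose and the 11.7% that fell.

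The largest change in this fit was in SCRG1, a small secreted protein first described in scrapie-infected brain. From the authors' table its log2 change was smaller than that of ASNS, described below (2.38 against 3.40). SCRG1 read 10.20, 10.30, 10.14 and 10.03 on the ICG-001 arrays, against 6.54, 6.21 and 6.52 on the DMSO arrays. The groups did not overlap, and SCRG1 was 13.5-fold higher (a log2 change of 3.75 ± 0.12 SE, adjusted p = 2.50e-08, 2.38 from the authors' table). ABCA3, a transporter of lipids into storage organelles, read 8.09, 8.16, 8.21 and 8.11 on the ICG-001 arrays, against 5.04, 4.81 and 4.93 on the DMSO arrays, where it was not above background on any DMSO array. On the normalized signals used here its rise was therefore at least 8.32-fold (adjusted p = 9.60e-07, means 8.14 ± 0.04 with ICG-001 and 4.92 ± 0.00 with DMSO). This bound holds only for these signals, and the authors' table gave a smaller rise, a log2 change of 1.18. XYLT1, which starts glycosaminoglycan chains, was likewise not above background on the DMSO arrays. On the same signals it was at least 3.39-fold higher (adjusted p = 6.92e-06, means 6.84 ± 0.12 with ICG-001 and 4.86 ± 0.04 with DMSO). The authors' table again gave a smaller rise, a log2 change of 0.54. TNFRSF19, a TNF receptor family member and reported Wnt target, read 11.18, 11.02, 11.32 and 11.02 on the ICG-001 arrays, against 9.06, 8.87 and 8.96 on the DMSO arrays. All 4 ICG-001 arrays lay above all 3 DMSO arrays (a log2 change of 2.16 ± 0.12 SE, adjusted p = 3.17e-06). A dimmer second probe of TNFRSF19 gave a log2 change of 0.18 that did not pass.

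Other genes among the 20 largest rises came from unrelated families. ZCWPW1, a reader of histone methylation, rose 5.49-fold (a log2 change of 2.46 ± 0.16 SE, adjusted p = 8.08e-06, 1.15 from the authors' table). AFMID, an enzyme of tryptophan breakdown, rose 5.17-fold (a log2 change of 2.37 ± 0.22 SE, adjusted p = 8.27e-05, 0.80 from the authors' table). KCNG1, a potassium channel subunit, had a log2 change of 2.16, the kinesin KIF1A of 2.10, the purinergic receptor P2RY11 of 1.93 and SPATS1 of 2.16. From the authors' table KCNG1 had 0.95, KIF1A 0.84 and P2RY11 0.69. FGF9, a growth factor, read 9.54, 9.48, 9.50 and 9.36 on the ICG-001 arrays, against 7.31, 6.94 and 7.69 on the DMSO arrays. Its groups did not overlap (a log2 change of 2.08 ± 0.17 SE, adjusted p = 3.06e-05, 1.37 from the authors' table), and a dimmer second probe gave a log2 change of 0.49 that did not pass.

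**Figure D1:**
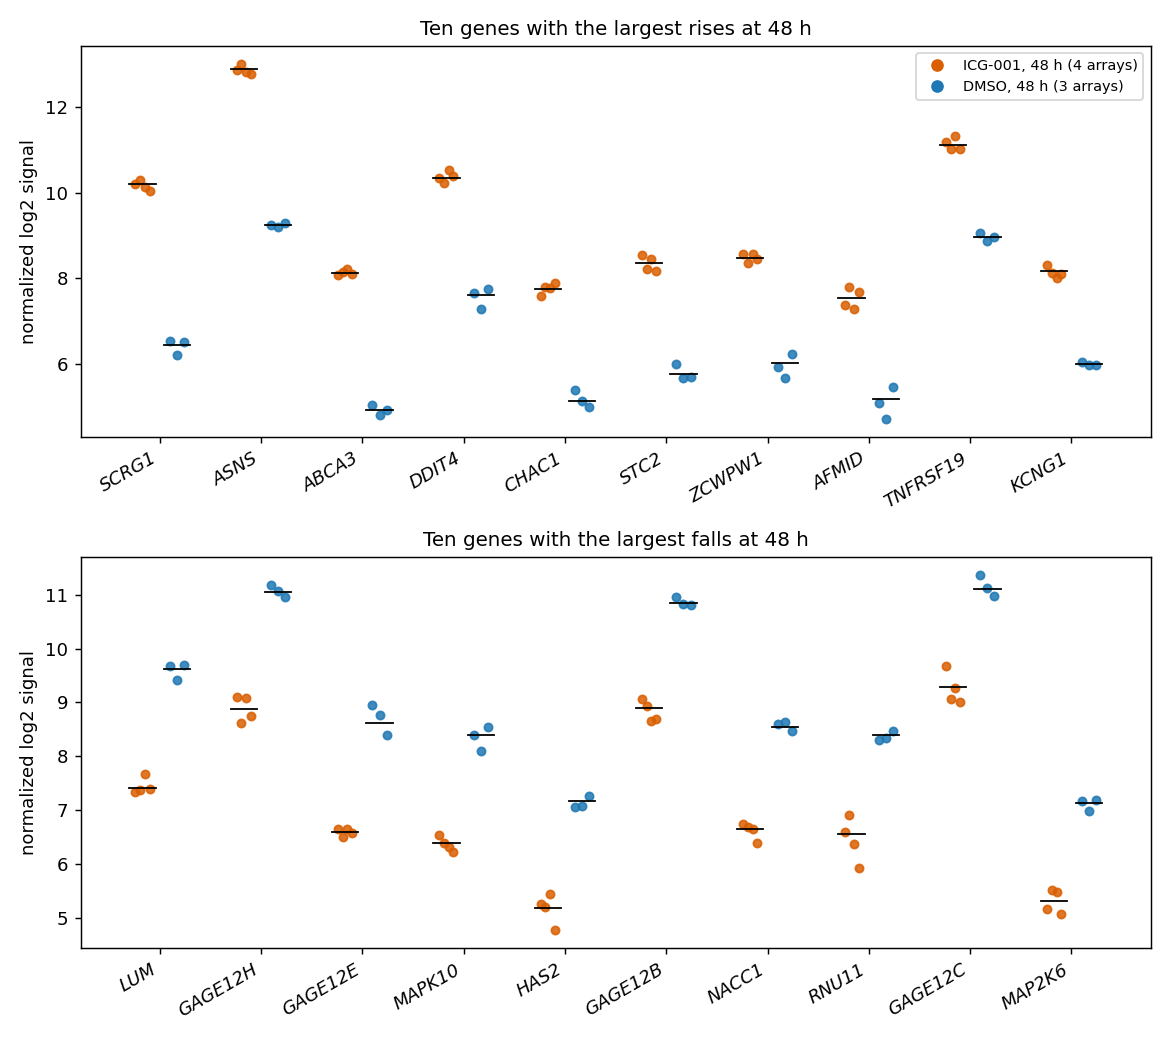
Normalized log2 signal (vertical axis) on each 48 h array for the 10 genes with the largest rises (upper panel) and the 10 with the largest falls (lower panel). Points are single arrays, with ICG-001 (orange, 4 arrays) left of DMSO (blue, 3 arrays) for each gene, and black bars are means over replicates. The genes were taken only from those whose replicates did not overlap, so the lack of overlap between replicates was set by the choice.

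Most of the measured genes that make amino acids rose. Of 15 tested enzymes of asparagine, serine, glycine, proline and related synthesis, 10 rose and 1 fell, where 25.8% of all genes passed. The median log2 change of the list was 0.65, against 0.01 over all genes. ASNS, which makes asparagine from aspartate and glutamine, read 12.86, 13.01, 12.82 and 12.77 on the ICG-001 arrays, against 9.24, 9.20 and 9.30 on the DMSO arrays. The lowest ICG-001 array stood more than 3 log2 units above the highest DMSO array, and ASNS was 12.4-fold higher (a log2 change of 3.63 ± 0.12 SE, adjusted p = 2.50e-08). The second ASNS probe also rose. PHGDH, the first enzyme of serine synthesis, read 11.19, 10.99, 10.97 and 10.95 on the ICG-001 arrays, against 9.16, 9.17 and 9.14 on the DMSO arrays (a log2 change of 1.89 ± 0.12 SE, adjusted p = 8.08e-06). PSAT1, the next enzyme of that path, was 3.05-fold higher (a log2 change of 1.61 ± 0.16 SE, adjusted p = 1.07e-04), and SHMT2, which turns serine into glycine in mitochondria, was 1.96-fold higher (a log2 change of 0.97 ± 0.12 SE, adjusted p = 4.24e-04). Neither ASNS nor PHGDH overlapped between groups. CTH and CBS, which pass sulphur between methionine and cysteine, rose by log2 changes of 1.65 ± 0.15 and 1.13 ± 0.14 SE (adjusted p = 5.37e-05 and 3.89e-04; CTH 1.03 from the authors' table). GOT2, another aspartate aminotransferase, was the member that fell, a call lost without any 1 of the 48 h replicates or 24 h ICG-001 array 3. Of 10 one-carbon enzymes, 3 rose and 1 fell, and the mitochondrial folate enzymes MTHFD2 and MTHFD1L had log2 changes of 1.46 ± 0.13 and 1.16 ± 0.15 SE (adjusted p = 6.25e-05 and 4.63e-04).

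Among 22 amino acid transporters, which carry amino acids across membranes, 9 rose and 1 fell (median 0.41). SLC7A1, the carrier of arginine and lysine, read 11.45, 11.58, 11.30 and 11.35 on the ICG-001 arrays, against 10.10, 10.14 and 10.07 on the DMSO arrays. Its groups did not overlap (a log2 change of 1.36 ± 0.12 SE, adjusted p = 4.91e-05). SLC7A5, the light chain of the carrier of large neutral amino acids, was 2.21-fold higher (a log2 change of 1.14 ± 0.16 SE, adjusted p = 7.48e-04), and SLC1A3, a glutamate and aspartate carrier, had a log2 change of 0.66 ± 0.13 SE (adjusted p = 0.00374, 0.21 from the authors' table). Of 18 cytosolic aminoacyl-tRNA synthetases, 12 rose and 0 fell (median 0.77), and the replicates were higher without overlap for 15 of them, where 54.4% of all genes did not overlap in either direction. WARS1, the tryptophan enzyme, was 2.74-fold higher (a log2 change of 1.45 ± 0.17 SE, adjusted p = 2.91e-04). EPRS1, which charges glutamate and proline, read 12.09, 12.00, 12.14 and 12.08 on the ICG-001 arrays, against 10.72, 10.65 and 11.03 on the DMSO arrays (a log2 change of 1.21 ± 0.14 SE, adjusted p = 2.72e-04). SARS1, the serine enzyme, was 2.3-fold higher (a log2 change of 1.20 ± 0.12 SE, adjusted p = 1.05e-04). The 6 that did not pass were FARSA, FARSB, HARS1, KARS1, QARS1 and RARS1. Of 15 mitochondrial synthetases, 3 rose and 3 fell (median 0.16).

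ATF4 itself and most of its measured regulators and effectors rose. Of 29 tested members of that list, 18 rose and 1, CEBPD, fell, with a median log2 change of 0.81. ATF4 read 13.81, 13.77, 13.64 and 13.74 on the ICG-001 arrays, against 12.89, 12.80 and 13.05 on the DMSO arrays. Its groups did not overlap (a log2 change of 0.81 ± 0.12 SE, adjusted p = 9.94e-04). Of its other 2 probes, 1 rose with a log2 change of 1.34 and the dimmest did not pass, at 0.07. DDIT4, an inhibitor of mTORC1, read 10.35, 10.23, 10.54 and 10.39 on the ICG-001 arrays, against 7.65, 7.29 and 7.75 on the DMSO arrays. Every ICG-001 array was above every DMSO array (a log2 change of 2.74 ± 0.17 SE, adjusted p = 6.92e-06). CHAC1, which degrades glutathione, read 7.60, 7.80, 7.78 and 7.89 on the ICG-001 arrays, against 5.39, 5.14 and 5.00 on the DMSO arrays, and on DMSO it was above background on 1 of 3 arrays (a log2 change of 2.61 ± 0.24 SE, adjusted p = 6.04e-05, 0.91 from the authors' table). STC2, a secreted glycoprotein, was 6-fold higher (a log2 change of 2.59 ± 0.16 SE, adjusted p = 6.92e-06, 1.14 from the authors' table). TRIB3, a pseudokinase that binds ATF4, was 4.14-fold higher (a log2 change of 2.05 ± 0.15 SE, adjusted p = 2.44e-05). VEGFA, the endothelial growth factor, was 4.22-fold higher (a log2 change of 2.08 ± 0.14 SE, adjusted p = 8.08e-06, 0.75 from the authors' table), and PCK2, mitochondrial PEP carboxykinase, 4.03-fold higher (a log2 change of 2.01 ± 0.13 SE, adjusted p = 8.08e-06). DDIT3, also called CHOP, rose in this comparison (a log2 change of 0.66 ± 0.19 SE, adjusted p = 0.0273, 0.41 from the authors' table, adjusted p 0.127 without the DMSO pair, 0.0986 without DMSO array 3, 0.0826 without ICG-001 array 1 and 0.0554 without ICG-001 array 2). The sensor kinases of the pathway, EIF2AK1, EIF2AK2, EIF2AK3 and EIF2AK4, did not pass.

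Promoters were searched for the DNA element that ATF4 and its CEBP partners are known to bind, because members of these lists moved together. RefSeq promoters (GRCh38.p14, 250 bases before to 50 after a start) were found for 9371 of the 11679 genes tested. The element was searched as TGATGNAA on both strands, at any start of a gene. It was held by 4.46% of the 27305 genes in the promoter table and by 2.71% of those 9371 genes. It was held by 4.56% of the 1360 genes that rose, 1.95% of the 1078 that fell and 2.47% of the 6933 that did not pass. Among genes that rose at least 2-fold it was held by 10.2% (17 of 166), and among those that fell at least 2-fold by 1.64% (2 of 122). Of 90 tested members of the 6 amino acid response lists with a promoter, 21 held it, and 18 of these 21 rose, none fell and 3 (BCAT1, SLC1A5 and YARS2) did not pass. Over all 90, 42 rose and 6 fell. The lists were drawn up knowing which genes ATF4 is reported to regulate, so the share among them is a description. Capitals mark the element in the sequences below, given 5′ to 3′ on the gene's strand, whole for ASNS and CHAC1 and, for the others, as up to 30 bases on each side and no further than the start. ASNS lies at chr7:97872359-97872658 (minus strand) with the element from base -68, counted from the start at 1, and CHAC1 at chr15:40953221-40953520 (plus strand) with the reverse complement from base -209.
ASNS: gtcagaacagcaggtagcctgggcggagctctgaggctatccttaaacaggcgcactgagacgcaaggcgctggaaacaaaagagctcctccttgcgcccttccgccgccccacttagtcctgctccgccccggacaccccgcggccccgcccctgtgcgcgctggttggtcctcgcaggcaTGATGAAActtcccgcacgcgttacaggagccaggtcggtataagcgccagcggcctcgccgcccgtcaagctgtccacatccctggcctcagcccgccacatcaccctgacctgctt
CHAC1: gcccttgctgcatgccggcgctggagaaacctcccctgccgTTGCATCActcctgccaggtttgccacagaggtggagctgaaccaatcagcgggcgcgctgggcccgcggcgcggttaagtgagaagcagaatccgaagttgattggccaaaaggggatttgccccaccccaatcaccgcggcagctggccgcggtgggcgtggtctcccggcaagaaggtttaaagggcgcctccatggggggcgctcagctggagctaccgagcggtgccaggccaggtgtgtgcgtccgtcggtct
AARS1 (chr16:70289656-70289723, minus strand) and GARS1 (chr7:30594815-30594877, plus strand) encode the alanine and glycine synthetases, and GOT1 (chr10:99430785-99430852, minus strand) an aspartate aminotransferase.
AARS1: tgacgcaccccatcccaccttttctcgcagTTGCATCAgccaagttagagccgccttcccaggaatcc
GARS1: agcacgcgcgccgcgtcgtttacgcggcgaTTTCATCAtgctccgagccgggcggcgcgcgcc
GOT1: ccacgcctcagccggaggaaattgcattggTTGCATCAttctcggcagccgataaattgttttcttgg
CEBPG (chr19:33374041-33374108), JDP2 (chr14:75427976-75428021) and ATF3 (chr1:212565186-212565253), all on the plus strand, encode leucine zipper factors of the same superfamily as ATF4.
CEBPG: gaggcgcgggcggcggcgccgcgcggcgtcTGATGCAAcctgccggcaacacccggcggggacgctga
JDP2: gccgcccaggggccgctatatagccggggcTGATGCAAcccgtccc
ATF3: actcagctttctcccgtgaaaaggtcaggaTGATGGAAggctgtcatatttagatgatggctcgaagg
AARS1 had a log2 change of 0.84 ± 0.11 SE (adjusted p = 6.10e-04), GARS1 of 0.81 ± 0.13 SE (adjusted p = 0.00162) and GOT1 of 0.65 ± 0.14 SE (adjusted p = 0.00776, 0.0803 without the DMSO pair). CEBPG rose by 1.44 ± 0.14 SE, JDP2 by 1.13 ± 0.18 SE and ATF3 by 1.23 ± 0.17 SE on the log2 scale (adjusted p = 1.19e-04, 0.00126 and 7.14e-04). From the authors' table JDP2 had a log2 change of 0.54 and ATF3 of 0.79. GARS1, GOT1, CEBPG, JDP2 and ATF3 were chosen after their values were seen. A match is a description of the sequence only.

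**Figure D2:**
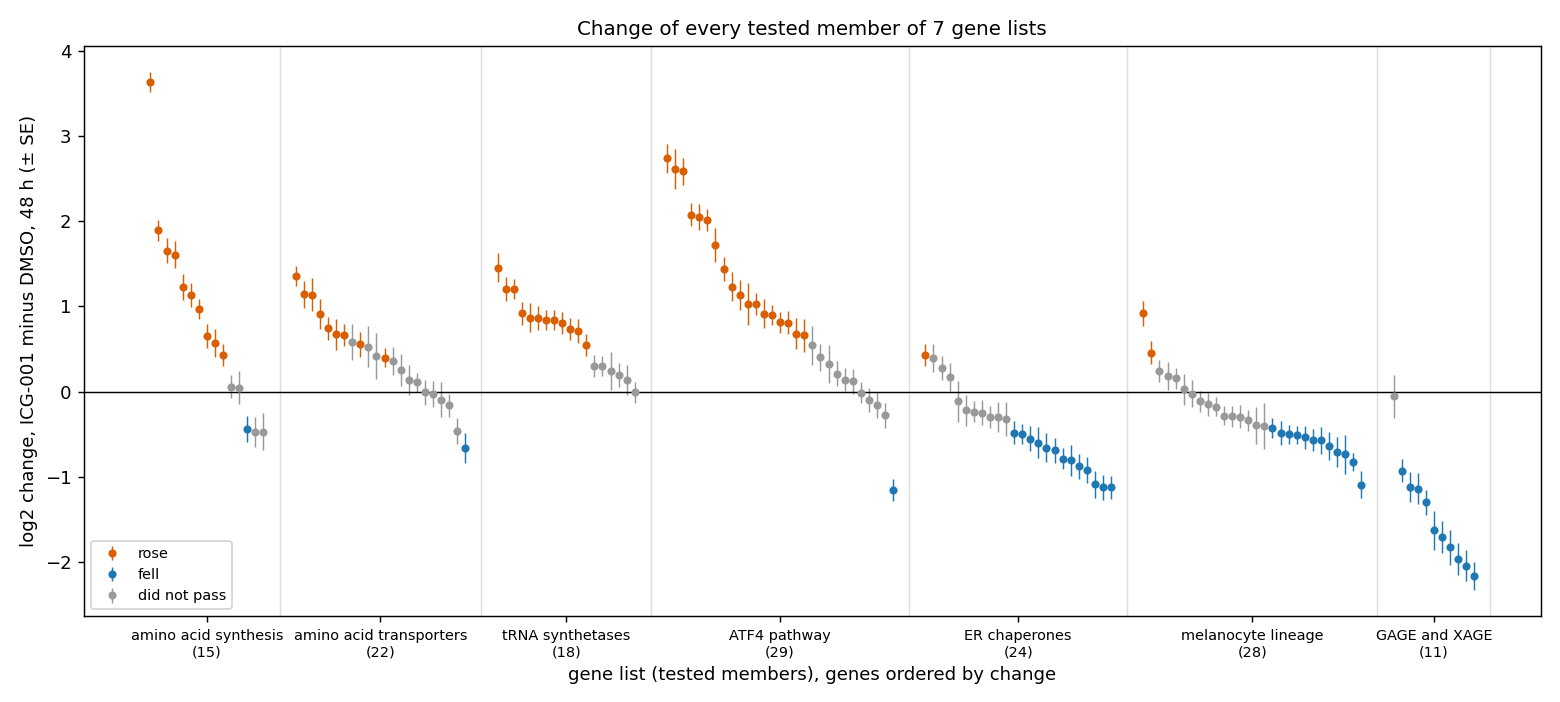
Log2 change (ICG-001 minus DMSO at 48 h, vertical axis, with the SE of the fit) for every tested member of 7 gene lists (horizontal axis, number tested in brackets). Orange marks genes that rose, blue those that fell and grey those that did not pass. The amino acid, synthetase and ATF4 lists lie mostly above 0, and the chaperone, melanocyte and GAGE lists mostly below.

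Of 24 tested chaperones and folding enzymes of the endoplasmic reticulum, 13 fell and 1, DNAJC10, rose, a call lost without the DMSO pair, DMSO array 3, ICG-001 array 2 or the ICG-001 pair (median -0.49). CALR, the calcium-binding lectin calreticulin, read 10.61, 10.64, 10.55 and 10.51 on the ICG-001 arrays, against 11.80, 11.87 and 11.60 on the DMSO arrays. The groups did not overlap (a log2 change of -1.12 ± 0.13 SE, adjusted p = 3.24e-04). PDIA6, a disulphide isomerase, read 9.35, 9.29, 9.61 and 9.60 on the ICG-001 arrays, against 10.72, 10.56 and 10.36 on the DMSO arrays (a log2 change of -1.09 ± 0.16 SE, adjusted p = 9.37e-04). HYOU1, a large HSP70 relative, was 2.18-fold lower (a log2 change of -1.12 ± 0.15 SE, adjusted p = 5.08e-04, -0.64 from the authors' table). SDF2L1, PDIA4 and CANX fell with log2 changes of -0.92 ± 0.15, -0.88 ± 0.14 and -0.78 ± 0.12 SE (adjusted p = 0.00167, 0.00161 and 0.00139; PDIA4 -0.49 from the authors' table). HSPA5, the central chaperone BiP, read 8.18, 7.93, 7.97 and 7.76 on the ICG-001 arrays, against 8.11, 8.01 and 8.37 on the DMSO arrays. Its groups overlapped and it did not pass (log2 change -0.22 ± 0.18 SE, adjusted p = 0.402, 95% confidence interval -0.61 to 0.18). HSP90B1 did not pass either (log2 change -0.30). Among the chaperones, the number that fell was 7 without the DMSO pair.

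Of 17 stress sensors and degradation factors of that compartment, 1 rose and 2 fell, against 14% and 11.7% of all genes. EDEM3, which trims mannose from misfolded glycoproteins, rose (a log2 change of 0.89 ± 0.15 SE, adjusted p = 0.00202, 0.50 from the authors' table). ATF6, XBP1 and ATF6B did not pass. Of 22 translocation and export genes, 5 fell and 1 rose, and the signal peptidase subunits SPCS3 and SPCS2 fell with log2 changes of -1.08 ± 0.15 and -0.84 ± 0.13 SE (adjusted p = 8.16e-04 and 0.00104). Among the translocation genes, the number that fell was 3 without the DMSO pair and 3 without DMSO array 3.

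The element through which ATF6 is known to raise these chaperones was searched as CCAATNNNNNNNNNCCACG on both strands. It was held by 0.0916% of the 27305 genes in the promoter table and by 0.16% of the 9371 tested genes with a promoter. Of 23 tested chaperones with a promoter, 7 held it: CALR, CANX, CRELD2 and PDIA6 fell, and ERO1B, HSP90B1 and HSPA5 did not pass. CALR (chr19:12938359-12938658, plus strand) is given whole, with the reverse complement of the element in capitals from base -225. PDIA6 (chr2:10812823-10812901, minus strand), CRELD2 (chr22:49918524-49918602, plus strand) and HSPA5 (chr9:125241361-125241439, minus strand) are given as 30 bases on each side.
CALR: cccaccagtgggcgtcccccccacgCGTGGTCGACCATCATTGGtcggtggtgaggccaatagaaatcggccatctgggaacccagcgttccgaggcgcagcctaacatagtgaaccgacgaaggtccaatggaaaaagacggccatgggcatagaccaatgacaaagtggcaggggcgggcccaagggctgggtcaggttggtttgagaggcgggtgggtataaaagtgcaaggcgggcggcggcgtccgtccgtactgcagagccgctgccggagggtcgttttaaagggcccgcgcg
PDIA6: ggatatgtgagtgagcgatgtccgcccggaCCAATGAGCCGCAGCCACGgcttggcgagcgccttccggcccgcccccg
CRELD2: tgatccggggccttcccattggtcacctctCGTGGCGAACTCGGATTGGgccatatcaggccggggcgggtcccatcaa
HSPA5: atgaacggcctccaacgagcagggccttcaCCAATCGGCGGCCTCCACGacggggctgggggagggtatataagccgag
CRELD2, a secreted stress protein chosen here after its value was seen, had a log2 change of -0.55 ± 0.15 SE (adjusted p = 0.0195, 0.155 without the DMSO pair and 0.0621 without ICG-001 array 2).

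Cell cycle genes were called in both directions at 48 h, as were genes at large. Of 39 mitosis genes, 8 fell and 4 rose (median -0.20), against 11.7% and 14% of all genes. CENPF, a kinetochore protein, read 10.41, 10.44, 10.37 and 10.34 on the ICG-001 arrays, against 9.57, 9.45 and 9.64 on the DMSO arrays. It rose without overlap (a log2 change of 0.83 ± 0.14 SE, adjusted p = 0.00164). CENPA, the centromeric histone, fell (a log2 change of -0.55 ± 0.13 SE, adjusted p = 0.00968, adjusted p 0.094 without DMSO array 3), and so did KIF20A, a kinesin of cytokinesis (a log2 change of -0.58 ± 0.15 SE, adjusted p = 0.0155, adjusted p 0.0609 without the DMSO pair and 0.097 without DMSO array 3). BIRC5, the survivin gene and a reported target of CBP with beta-catenin, read 10.79, 10.77, 10.76 and 10.66 on the ICG-001 arrays, against 10.30, 10.20 and 10.21 on the DMSO arrays. All ICG-001 arrays lay above all DMSO arrays (a log2 change of 0.53 ± 0.13 SE, adjusted p = 0.0135, adjusted p 0.0665 without the DMSO pair and 0.0775 without DMSO array 3). The dimmer second probe of BIRC5 did not pass (log2 change 0.45). Among the mitosis genes, the number that rose was 1 without the DMSO pair and 1 without DMSO array 3, and the number that fell was 2 without the DMSO pair, 0 without DMSO array 3, 3 without ICG-001 array 1, 5 without ICG-001 array 2, 5 without 24 h ICG-001 array 3 and 13 from the authors' table.

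In DNA replication, 4 of 39 genes rose and 2 fell, against 14% and 11.7% of all genes. CDT1, which loads the replicative helicase, rose (a log2 change of 0.84 ± 0.17 SE, adjusted p = 0.0044). MCM2 to MCM7 did not pass. Among the replication genes, the number that rose was 2 without the DMSO pair, 2 without DMSO array 3, 2 without ICG-001 array 2 and 2 without the ICG-001 pair. Of 19 recombination and Fanconi genes, 5 rose and 1 fell. FANCI, which marks stalled forks with its partner FANCD2, read 9.25, 9.22, 9.23 and 9.37 on the ICG-001 arrays, against 8.30, 8.47 and 8.43 on the DMSO arrays, with no overlap (a log2 change of 0.85 ± 0.12 SE, adjusted p = 7.85e-04). Among the repair genes, the number that rose was 2 without the DMSO pair. Histone transcripts were divided, with 3 up and 4 down of 13. H2BC21 had a log2 change of 1.45 ± 0.17 SE, H2AC6 of -1.13 ± 0.22 SE and the damage-linked H2AX of -0.94 ± 0.17 SE (adjusted p = 3.10e-04, 0.00376 and 0.00308). In the authors' table these were 0.52, -0.27 and -0.57. Among the histone genes, the number that rose was 1 without the DMSO pair and 1 without ICG-001 array 2, and the number that fell was 2 without the DMSO pair.

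Of 18 G1 regulators, 3 rose and 1 fell, against 14% and 11.7% of all genes. CCND1, cyclin D1, read 12.24, 12.06, 11.93 and 12.08 on the ICG-001 arrays, against 11.83, 11.82 and 11.99 on the DMSO arrays, with overlapping groups (log2 change 0.19 ± 0.13 SE, adjusted p = 0.312, 95% confidence interval -0.10 to 0.48). CDKN1A, the p21 inhibitor, read 11.43, 11.30, 11.55 and 11.36 on the ICG-001 arrays, against 11.27, 11.18 and 11.40 on the DMSO arrays. Its groups overlapped and it did not pass (log2 change 0.08 ± 0.15 SE, adjusted p = 0.718, 95% confidence interval -0.24 to 0.40). Among the G1 regulators, the number that rose was 1 without the DMSO pair, 1 without ICG-001 array 1 and 1 without ICG-001 array 2. Of 21 p53 targets, 5 rose and 1, TIGAR, fell, and those that rose include known targets of ATF4, such as GADD45A and SESN2. MDM2, the p53 ubiquitin ligase, did not pass. GADD45A, a stress protein that binds p38 kinases and PCNA, had a log2 change of 0.96 ± 0.18 SE (adjusted p = 0.00304, 0.45 from the authors' table).

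Cell death genes were called in both directions, as were all genes, of which 14% rose and 11.7% fell. PMAIP1, the BH3-only protein NOXA, read 9.58, 9.46, 9.45 and 9.85 on the ICG-001 arrays, against 7.14, 7.44 and 7.64 on the DMSO arrays. Its groups did not overlap (a log2 change of 2.10 ± 0.16 SE, adjusted p = 2.44e-05), and a second probe also rose. HRK, another BH3-only protein, was 3.09-fold higher (a log2 change of 1.63 ± 0.19 SE, adjusted p = 2.72e-04, 1.00 from the authors' table). BCL2L1, which encodes the survival protein BCL-XL, was 1.7-fold lower (a log2 change of -0.76 ± 0.13 SE, adjusted p = 0.00216), and the BH3-only gene BAD fell too (a log2 change of -0.81 ± 0.15 SE, adjusted p = 0.00336, -0.51 from the authors' table). Second probes of BCL2L1 and of BAD also fell. Of 14 BCL2 family genes, 3 rose and 3 fell, and BCL2, BAK1, MCL1 and BAX did not pass, although dimmer probes of MCL1 and BAX fell (-0.67 and -0.81). Of 17 inhibitors of apoptosis, caspases and receptors, 2 rose and 2 fell. FADD, the adaptor of death receptors, had a log2 change of 0.57 ± 0.11 SE (adjusted p = 0.00452).

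ICG-001 is known to bind CBP, so the transcripts of CBP and its partners are given whether or not they passed. CREBBP, the gene of CBP, read 9.35, 9.18, 9.52 and 9.09 on the ICG-001 arrays, against 9.73, 9.64 and 9.53 on the DMSO arrays. The groups did not overlap, by a narrow margin, and the difference did not pass (log2 change -0.32 ± 0.12 SE, adjusted p = 0.0736, 95% confidence interval -0.59 to -0.05), and a dim second probe rose by 0.77. EP300, which encodes p300, had a log2 change of -0.16 ± 0.22 SE (adjusted p = 0.634, 95% confidence interval -0.63 to 0.32). CTNNB1, the beta-catenin gene, had 0.16 ± 0.27 SE (adjusted p = 0.697, 95% confidence interval -0.43 to 0.75), and of its other 2 probes the dimmest rose by 1.75 and the other did not pass.

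Of 19 classical Wnt targets tested, 5 rose and 1 fell (median 0.21), against 14% and 11.7% of all genes. AXIN2, the feedback gene of the pathway, read 5.94, 5.60, 6.43 and 5.62 on the ICG-001 arrays, against 5.70, 5.30 and 5.52 on the DMSO arrays. Its groups overlapped (log2 change 0.34 ± 0.16 SE, adjusted p = 0.144, 95% confidence interval -0.01 to 0.70). MYC read 12.37, 12.67, 12.41 and 12.55 on the ICG-001 arrays, against 12.00, 11.92 and 12.01 on the DMSO arrays. Its arrays did not overlap, yet the change did not pass with the brightest probe (log2 change 0.52 ± 0.20 SE, adjusted p = 0.0848, 95% confidence interval 0.07 to 0.97), and a second probe rose by 0.81. LEF1, the TCF family partner of beta-catenin, rose (a log2 change of 0.69 ± 0.19 SE, adjusted p = 0.022, 0.42 from the authors' table, adjusted p 0.165 without the DMSO pair, 0.0578 without ICG-001 array 1 and 0.067 without ICG-001 array 2). Among the Wnt targets, the number that rose was 1 without the DMSO pair, 2 without DMSO array 3 and 3 without ICG-001 array 2. Of 22 CBP, beta-catenin and TCF cofactors, 5 rose and 0 fell. CSNK1A1, the casein kinase that primes beta-catenin for destruction, rose (a log2 change of 1.13 ± 0.16 SE, adjusted p = 8.83e-04, 0.64 from the authors' table), while its other 2 probes did not pass. Among the cofactors, the number that rose was 1 without the DMSO pair, 2 without DMSO array 3, 2 without ICG-001 array 1 and 3 without ICG-001 array 2.

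CREB and immediate-early genes were mixed, 5 up and 3 down of 20, against 14% and 11.7% of all genes. JUNB, an AP-1 factor, read 6.28, 5.72, 5.89 and 5.45 on the ICG-001 arrays, against 7.13, 7.01 and 7.11 on the DMSO arrays. Its groups did not overlap and it was 2.29-fold lower (a log2 change of -1.20 ± 0.19 SE, adjusted p = 0.00145, -0.41 from the authors' table). EGR1, an early growth response factor, fell (a log2 change of -0.69 ± 0.15 SE, adjusted p = 0.00834, -0.45 from the authors' table, adjusted p 0.0546 without DMSO array 3), and NR4A2, an orphan nuclear receptor and CREB target, rose (a log2 change of 0.77 ± 0.17 SE, adjusted p = 0.00838, 0.25 from the authors' table, adjusted p 0.0529 without the DMSO pair). FOS did not pass. Among the CREB and immediate-early genes, the number that rose was 1 without the DMSO pair and 2 without DMSO array 3, and the number that fell was 1 without DMSO array 3.

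Of 18 YAP and TAZ targets, 8 rose and 0 fell (median 0.38), against 14% and 11.7% of all genes. CRIM1, which binds BMPs at the cell surface, had a log2 change of 1.07 ± 0.18 SE and MYOF, a membrane repair protein, of 1.14 ± 0.21 SE (adjusted p = 0.00205 and 0.00278; 0.25 and 0.34 from the authors' table). CCN2, a matricellular protein, rose (a log2 change of 0.63 ± 0.16 SE, adjusted p = 0.0147, 0.39 from the authors' table, adjusted p 0.0662 without the DMSO pair and 0.0845 without DMSO array 3), and its neighbour in the pathway CCN1 did not pass (log2 change 0.51). TEAD4, a DNA-binding partner of YAP, was called up by its bright probe (log2 change 0.44, adjusted p 0.141 without the DMSO pair, 0.0528 without DMSO array 3 and 0.0669 without ICG-001 array 1) and down by a dim one (-0.62). Among the YAP targets, the number that rose was 4 without the DMSO pair and 4 without DMSO array 3.

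MAPK10 and MAP2K6, kinases of the stress pathways, were among the 20 largest falls. MAPK10, the neuronal JNK3 kinase, read 6.53, 6.38, 6.31 and 6.21 on the ICG-001 arrays, against 8.40, 8.10 and 8.55 on the DMSO arrays. The groups did not overlap (a log2 change of -2.01 ± 0.14 SE, adjusted p = 1.32e-05, -0.99 from the authors' table), and of its 2 dimmer probes 1 also fell. MAP2K6, an activator of p38, read 5.16, 5.52, 5.48 and 5.08 on the ICG-001 arrays, against 7.17, 6.99 and 7.19 on the DMSO arrays, and it was above background on 2 of 4 ICG-001 arrays and 3 of 3 DMSO arrays (a log2 change of -1.82 ± 0.19 SE, adjusted p = 1.57e-04, -0.57 from the authors' table). Of 21 JNK and p38 genes, 4 fell and 1 rose, against 11.7% and 14% of all genes. Among the JNK and p38 genes, the number that fell was 2 without the DMSO pair. PRKCA, a protein kinase C that signals downstream of GNAQ, read 8.70, 8.99, 8.95 and 8.99 on the ICG-001 arrays, against 7.73, 7.56 and 7.69 on the DMSO arrays. It rose without overlap (a log2 change of 1.21 ± 0.13 SE, adjusted p = 2.08e-04, 0.78 from the authors' table). PRKCB, its beta isoform, rose as well (a log2 change of 0.80 ± 0.13 SE, adjusted p = 0.00149), with 3 of its other 4 probes. GNAQ and GNA11 themselves did not pass (log2 changes -0.05 and -0.17). Of 23 members of this list 5 rose and 3 fell. Among the protein kinase C and G protein genes, the number that rose was 3 without the DMSO pair and 3 without DMSO array 3, and the number that fell was 0 without the DMSO pair, 0 without DMSO array 3, 1 without ICG-001 array 2, 1 without the ICG-001 pair and 1 without the arrays ending in b. Of 17 ERK output genes, 4 rose and 3 fell. SPRY1, a feedback inhibitor of that pathway, had a log2 change of 0.66 ± 0.13 SE and DUSP5, an ERK phosphatase, of 0.59 ± 0.12 SE (adjusted p = 0.00498 and 0.00482; 0.34 and 0.36 from the authors' table). Among the ERK output genes, the number that rose was 2 without the DMSO pair, and the number that fell was 1 without the DMSO pair and 1 without DMSO array 3. SMAD6, an inhibitor of BMP signals, was 1 of 3 that rose among 15 TGF-beta and BMP genes (a log2 change of 1.15 ± 0.16 SE, adjusted p = 6.70e-04, 0.73 from the authors' table). Among the TGF-beta and BMP genes, the number that rose was 1 without the DMSO pair and 1 without ICG-001 array 1.

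Of 28 melanocyte lineage and melanosome genes tested, 12 fell and 2 rose (median -0.36), against 11.7% and 14% of all genes. SLC45A2, a transporter of the melanosome membrane, read 11.43, 11.40, 11.40 and 11.37 on the ICG-001 arrays, against 12.29, 12.18 and 12.23 on the DMSO arrays. The groups did not overlap (a log2 change of -0.82 ± 0.11 SE, adjusted p = 5.71e-04), and its 3 other probes fell too. RAB27A, which moves melanosomes to the cell edge, read 7.19, 7.17, 7.26 and 6.94 on the ICG-001 arrays, against 8.24, 8.00 and 8.37 on the DMSO arrays (a log2 change of -1.09 ± 0.16 SE, adjusted p = 9.97e-04, -0.59 from the authors' table). RAB38, which sorts cargo to melanosomes, had a log2 change of -0.51 ± 0.11 SE (adjusted p = 0.00676). MITF, the lineage regulator, read 10.02, 9.98, 10.08 and 10.10 on the ICG-001 arrays, against 10.43, 10.17 and 10.35 on the DMSO arrays. All ICG-001 arrays were below all DMSO arrays, but the difference did not pass (log2 change -0.30 ± 0.13 SE, adjusted p = 0.129, 95% confidence interval from -0.59 to just below 0). TYR, TYRP1, PMEL and MLANA, the pigment enzymes and melanosome proteins under MITF, did not pass (log2 changes -0.28, 0.24, -0.18 and -0.15). ERBB3, a neuregulin receptor, rose with its brightest probe (log2 change 0.92) and fell with another (-0.68). Among the melanocyte genes, the number that fell was 5 without the DMSO pair.

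Of 13 genes that grade uveal melanoma prognosis, 4 fell and 1 rose, against 11.7% and 14% of all genes. MTUS1, a microtubule-associated protein, fell (a log2 change of -0.88 ± 0.12 SE, adjusted p = 8.34e-04, -0.57 from the authors' table), while its 2 dimmer probes did not pass. CDH1, RAB31 and PRAME were the others that fell. EIF1B was the member that rose, a call lost under 11 of 25 alternatives. Whether these calls point to either prognosis was not tested. Among the prognostic genes, the number that fell was 1 without the DMSO pair, 1 without DMSO array 3, 1 without ICG-001 array 1, 2 without ICG-001 array 2 and 1 without the ICG-001 pair. None of 7 measured driver and suppressor genes passed.

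GAGE genes encode cancer-testis antigens, proteins made in germ cells and again in some tumours, from near-identical copies on the X chromosome. Of 11 tested GAGE and XAGE genes, 10 fell (median -1.62), and XAGE1B did not pass (log2 change -0.06). GAGE12H read 9.11, 8.62, 9.08 and 8.76 on the ICG-001 arrays, against 11.19, 11.08 and 10.96 on the DMSO arrays, with no overlap (a log2 change of -2.17 ± 0.17 SE, adjusted p = 2.44e-05). GAGE12B read 9.06, 8.94, 8.65 and 8.69 on the ICG-001 arrays, against 10.96, 10.82 and 10.81 on the DMSO arrays (a log2 change of -1.96 ± 0.19 SE, adjusted p = 9.35e-05). GAGE12C was 3.55-fold lower (a log2 change of -1.83 ± 0.21 SE, adjusted p = 2.41e-04) and GAGE2A 2.46-fold lower (a log2 change of -1.30 ± 0.15 SE, adjusted p = 2.41e-04, -0.41 from the authors' table). Since the copies share nearly all their sequence, the probes may read the same transcripts and their number is not a number of independent genes. The 10 also fell with any 1 replicate left out.

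SSX genes are another X-linked antigen family with similar copies. SSX1 read 6.78, 6.90, 7.29 and 6.85 on the ICG-001 arrays, against 8.79, 8.57 and 8.56 on the DMSO arrays, with no overlap (a log2 change of -1.71 ± 0.13 SE, adjusted p = 2.44e-05, -0.94 from the authors' table). SSX4B was 2.34-fold lower (a log2 change of -1.22 ± 0.19 SE, adjusted p = 0.00111, -0.48 from the authors' table). Of 8 SSX, MAGE and related genes, 6 fell and 0 rose. MAGEA6 and SSX5 did not pass. Among the members of this group, the number that fell was 3 without the DMSO pair.

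**Figure D3:**
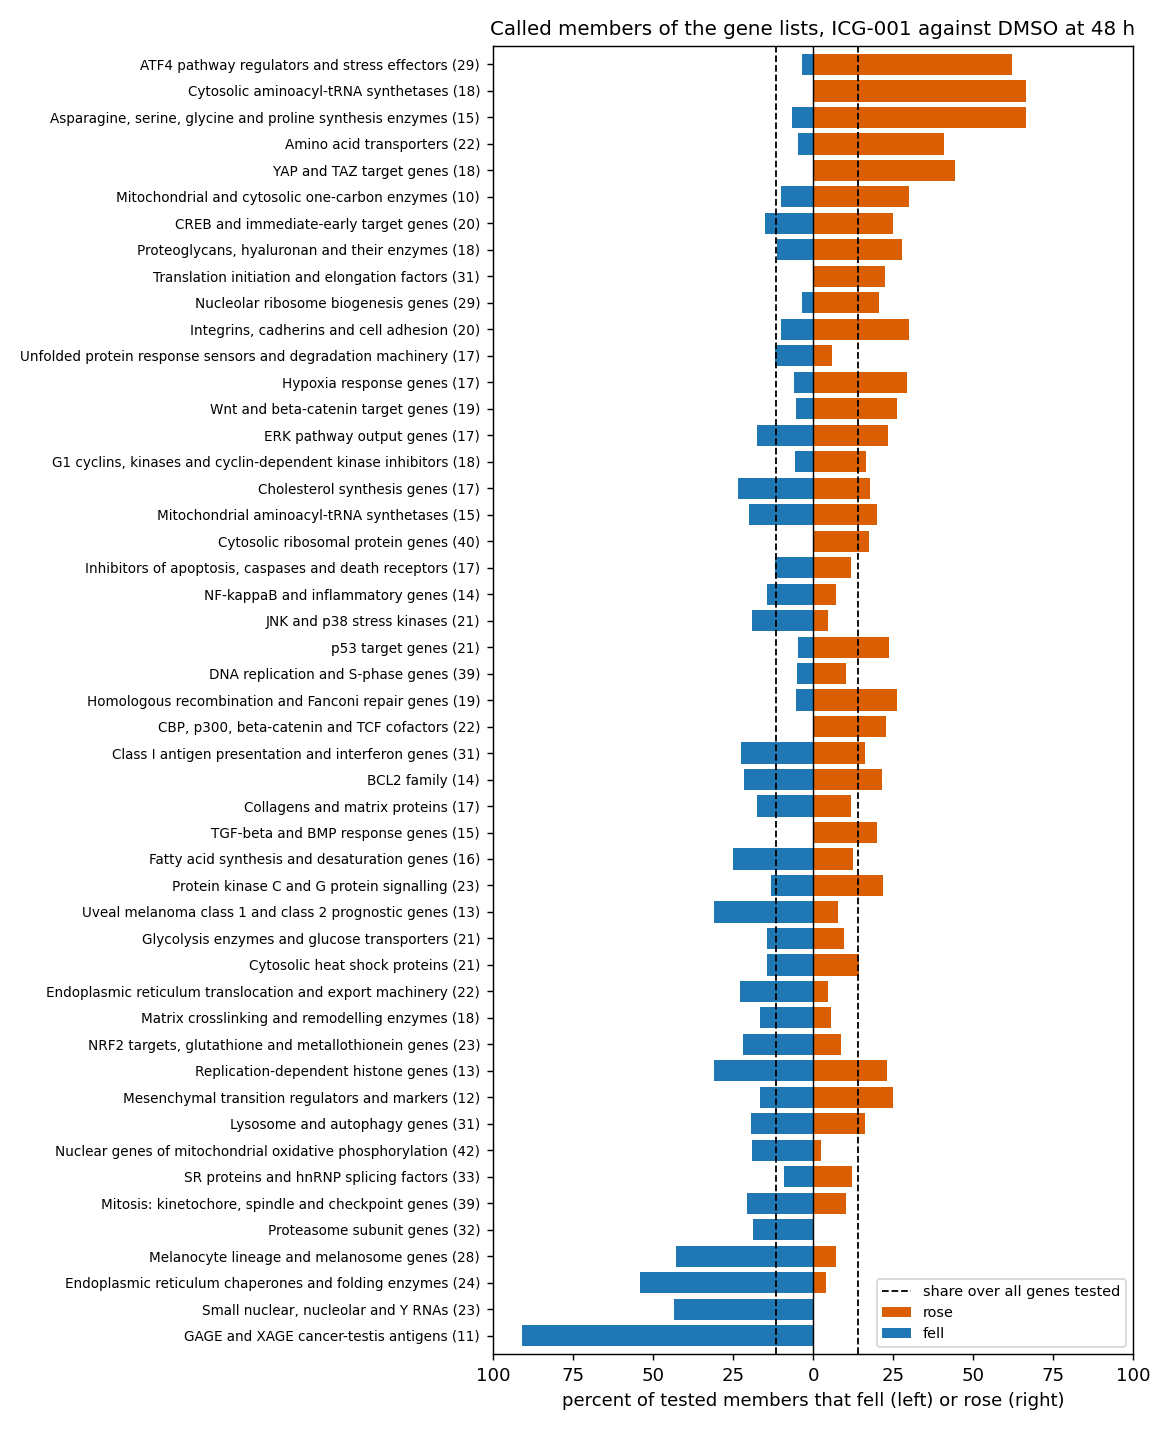
Percent of tested members of each gene list that fell (blue, left) or rose (orange, right) with ICG-001 at 48 h, for the 49 lists with at least 10 tested members (number in brackets), ordered by median log2 change. Dashed lines mark the shares over all genes tested, 14% that rose and 11.7% that fell, and the ATF4, synthetase and amino acid lists pass the first while the GAGE, chaperone, small RNA and melanocyte lists pass the second.

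LUM, the matrix proteoglycan lumican, had the largest fall of the genes tested. LUM read 7.33, 7.37, 7.67 and 7.38 on the ICG-001 arrays, against 9.67, 9.42 and 9.70 on the DMSO arrays, with no overlap (a log2 change of -2.22 ± 0.16 SE, adjusted p = 1.56e-05), and a dim second probe also fell. LUM is also a fibroblast marker. The summed signal of the 2 tested fibroblast markers, LUM itself and COL1A1, was 186.5 to 237.3 on the ICG-001 arrays, against 716.9 to 867 on the DMSO arrays. COL1A1 was above background on 1 of 4 ICG-001 arrays and 1 of 3 DMSO arrays. It read 4.43 to 5.08 and 4.90 to 5.04 on these arrays. The sum therefore largely repeats LUM and is no separate reading of fibroblasts. A part of fibroblasts in the fall of LUM was not tested. HAS2, a hyaluronan synthase, read 5.26, 5.20, 5.44 and 4.77 on the ICG-001 arrays, against 7.06, 7.08 and 7.27 on the DMSO arrays (a log2 change of -1.98 ± 0.20 SE, adjusted p = 1.12e-04, -0.61 from the authors' table). SPARC, a collagen-binding glycoprotein, read 8.01, 8.31, 8.30 and 8.30 on the ICG-001 arrays, against 9.53, 9.28 and 9.16 on the DMSO arrays (a log2 change of -1.08 ± 0.15 SE, adjusted p = 8.88e-04). PLAT, the tissue plasminogen activator, had a log2 change of -0.94 ± 0.15 SE (adjusted p = 0.00154). In the other direction, GPC3, a heparan sulphate proteoglycan, rose 2.38-fold (a log2 change of 1.25 ± 0.15 SE, adjusted p = 2.94e-04, 0.35 from the authors' table), and so did the membrane metalloproteinase MMP16 (a log2 change of 0.99 ± 0.17 SE, adjusted p = 0.0021, 0.29 from the authors' table). Of 18 proteoglycan genes, 5 rose and 2 fell, of 17 collagens and matrix proteins 2 rose and 3 fell, and of 18 remodelling enzymes 1 rose and 3 fell. Over all genes 14% rose and 11.7% fell. Among the proteoglycan genes, the number that rose was 1 without the DMSO pair, 2 without DMSO array 3, 3 without ICG-001 array 1 and 3 without ICG-001 array 2. Among the collagens and matrix genes, the number that fell was 1 without the DMSO pair, 1 without DMSO array 3, 1 without ICG-001 array 1, 1 without ICG-001 array 2, 1 without the ICG-001 pair, 1 with 75th percentile scaling and 1 without the arrays ending in b. Among the remodelling genes, the number that fell was 1 without the DMSO pair and 1 without DMSO array 3.

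Among adhesion genes, CDH2, the N-cadherin gene, read 7.70, 7.53, 7.40 and 7.43 on the ICG-001 arrays, against 5.23, 5.23 and 5.82 on the DMSO arrays. Its groups did not overlap (a log2 change of 2.02 ± 0.17 SE, adjusted p = 4.42e-05, 0.72 from the authors' table). CDH19, a cadherin of neural crest and Schwann cells, rose (a log2 change of 1.07 ± 0.17 SE, adjusted p = 0.00136). CDH1, the E-cadherin gene, fell (a log2 change of -0.74 ± 0.23 SE, adjusted p = 0.0386, -0.47 from the authors' table, adjusted p 0.12 without the DMSO pair, 0.158 without DMSO array 3, 0.053 without ICG-001 array 1, 0.0628 without ICG-001 array 2 and 0.107 without the ICG-001 pair). Of 20 adhesion genes, 6 rose and 2 fell, against 14% and 11.7% of all genes. Among the adhesion genes, the number that rose was 2 without the DMSO pair and 2 without ICG-001 array 1. Of 12 mesenchymal genes, 3 rose and 2, VIM and EMP3, fell. VIM, the vimentin gene, read 13.61 to 13.83 on the ICG-001 arrays, against 13.98 to 14.33 on the DMSO arrays, with no overlap. Among the mesenchymal genes, the number that fell was 1 without ICG-001 array 1 and 1 without ICG-001 array 2. ACTA2, smooth muscle actin, rose (a log2 change of 0.89 ± 0.15 SE, adjusted p = 0.00186). TAGLN, an actin-binding protein, was not above background on the DMSO arrays. On the normalized signals used here it was at least 1.51-fold higher (adjusted p = 0.00149, means 5.67 ± 0.23 with ICG-001 and 4.45 ± 0.07 with DMSO). The authors' table gave a smaller rise, a log2 change of 0.34. EMP3, a membrane protein of mesenchymal tumours, read 10.11, 9.86, 10.04 and 9.90 on the ICG-001 arrays, against 11.55, 11.41 and 11.19 on the DMSO arrays. It fell without overlap (a log2 change of -1.35 ± 0.14 SE, adjusted p = 1.47e-04). SNAI2, ZEB2, TWIST1 and TWIST2 did not pass.

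Of 21 glycolysis and glucose transport genes, 2 rose and 3 fell, against 14% and 11.7% of all genes. SLC2A1, the glucose carrier GLUT1, read 7.87, 7.67, 7.85 and 7.78 on the ICG-001 arrays, against 6.64, 7.05 and 6.58 on the DMSO arrays (a log2 change of 1.07 ± 0.15 SE, adjusted p = 7.28e-04, 0.50 from the authors' table), and HK2, hexokinase 2, was 1.97-fold higher (a log2 change of 0.98 ± 0.18 SE, adjusted p = 0.003). PGAM1, a mutase of lower glycolysis, was 2.09-fold lower (a log2 change of -1.06 ± 0.16 SE, adjusted p = 0.00122) and PKM, pyruvate kinase, 1.7-fold lower (a log2 change of -0.76 ± 0.11 SE, adjusted p = 0.00101). Both other PKM probes and the other PGAM1 probe also fell. Among the glycolysis genes, the number that fell was 6 from the authors' table. GAPDH and ENO1 did not pass, nor did LDHA and PGK1, of each of which a dimmer probe fell (-0.54 and -0.41). Of 17 hypoxia genes, 5 rose and 1 fell. NDRG1, a stress-induced gene of hypoxic cells, was 2.4-fold higher (a log2 change of 1.26 ± 0.13 SE, adjusted p = 1.29e-04, 0.56 from the authors' table), while CA12, ADM, BNIP3 and EGLN1 did not pass.

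Of 42 nuclear genes of oxidative phosphorylation, 8 fell and 1 rose, against 11.7% and 14% of all genes. ATP5MC3, a ring subunit of ATP synthase, and NDUFV2, of complex I, fell with log2 changes of -0.81 ± 0.12 and -0.78 ± 0.12 SE (adjusted p = 0.00109 and 0.00119; ATP5MC3 -0.38 from the authors' table). Among the oxidative phosphorylation genes, the number that fell was 2 without the DMSO pair, 2 without DMSO array 3, 3 without ICG-001 array 1, 4 without ICG-001 array 2, 5 without 24 h ICG-001 array 3, 2 with 75th percentile scaling and 4 without the arrays ending in b. Cholesterol synthesis had 3 genes up and 4 down of 17. HMGCS1, at the entry of the path, rose (a log2 change of 0.62 ± 0.15 SE, adjusted p = 0.0103, adjusted p 0.089 without the DMSO pair), and MVK, mevalonate kinase, fell (a log2 change of -0.76 ± 0.17 SE, adjusted p = 0.00785, -0.29 from the authors' table, adjusted p 0.0573 without DMSO array 3). Among the cholesterol genes, the number that rose was 1 without the DMSO pair, and the number that fell was 1 without the DMSO pair, 0 without DMSO array 3, 2 without ICG-001 array 2 and 2 without the ICG-001 pair. Of 16 fatty acid genes, 2 rose and 4 fell. SREBF1, the factor that drives the path, fell (a log2 change of -0.78 ± 0.18 SE, adjusted p = 0.0106, adjusted p 0.0691 without the DMSO pair and 0.0501 without DMSO array 3), and FASN and SCD did not pass. Among the fatty acid genes, the number that fell was 0 without DMSO array 3.

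Of 32 proteasome subunits 6 fell and 0 rose, against 11.7% and 14% of all genes. PSMD1, of the regulatory cap, fell (a log2 change of -0.65 ± 0.14 SE, adjusted p = 0.00827, adjusted p 0.0603 without DMSO array 3). Among the proteasome subunits, the number that fell was 1 without the DMSO pair, 2 without DMSO array 3 and 11 from the authors' table. Of 31 lysosome and autophagy genes, 5 rose and 6 fell. ATG7, an E1-like enzyme of autophagy, rose (a log2 change of 0.88 ± 0.13 SE, adjusted p = 0.00106, 0.39 from the authors' table), and the cathepsins CTSZ and CTSA fell with log2 changes of -0.75 ± 0.11 and -0.66 ± 0.12 SE (adjusted p = 8.83e-04 and 0.00289). Among the lysosome and autophagy genes, the number that rose was 2 without the DMSO pair, 3 without ICG-001 array 1, 3 without ICG-001 array 2, 3 without the ICG-001 pair, 3 without the 24 h ICG-001 pair and 3 without 24 h ICG-001 array 3. Of 23 NRF2, glutathione and metallothionein genes, 2 rose (SLC7A11 and CHAC1, which are also ATF4 targets) and 5 fell. SLC7A11, the cystine carrier, was not above background on the DMSO arrays. On the normalized signals used here it was at least 1.16-fold higher (adjusted p = 0.00278, a log2 change of 0.20 from the authors' table, means 5.29 ± 0.03 with ICG-001 and 4.55 ± 0.03 with DMSO). NQO1, a quinone reductase, did not pass, and a dimmer probe rose (0.73). Among the NRF2 and metallothionein genes, the number that fell was 2 without the DMSO pair, 1 without DMSO array 3, 3 without ICG-001 array 2 and 9 from the authors' table. Of 21 cytosolic heat shock genes, 3 rose and 3 fell. HSPA1A, an inducible HSP70 with the near-identical copy HSPA1B, rose (a log2 change of 0.81 ± 0.16 SE, adjusted p = 0.00468, 0.41 from the authors' table, adjusted p 0.0574 without the DMSO pair). Among the heat shock genes, the number that rose was 0 without the DMSO pair and 1 without ICG-001 array 1, and the number that fell was 1 without the DMSO pair, 1 without DMSO array 3, 5 without 24 h DMSO array 1, 5 without the 24 h DMSO pair and 6 from the authors' table.

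Of 40 ribosomal protein genes 7 rose and 0 fell (median 0.15), against 14% and 11.7% of all genes. RPS23 (a log2 change of 1.04 ± 0.12 SE, adjusted p = 3.24e-04) and RPL37 (a log2 change of 1.10 ± 0.20 SE, adjusted p = 0.00273, 0.45 from the authors' table) were among those that rose. Among the ribosomal protein genes, the number that rose was 4 without the DMSO pair, 3 without DMSO array 3, 11 from the authors' table and 19 with 75th percentile scaling. Of 31 translation factors 7 rose and 0 fell (median 0.27), against the same shares of all genes. EIF3C, a subunit of the initiation factor that joins mRNA to the small ribosomal subunit, read 8.30, 8.35, 7.98 and 8.47 on the ICG-001 arrays, against 6.61, 6.94 and 6.97 on the DMSO arrays, with no overlap (a log2 change of 1.42 ± 0.12 SE, adjusted p = 3.10e-05, 0.74 from the authors' table). Among the translation factors, the number that rose was 2 without the DMSO pair, 4 without DMSO array 3, 4 without the ICG-001 pair and 14 from the authors' table. Of 29 nucleolar genes, 6 rose and 1 fell, again against 14% and 11.7% of all genes. FBL, the methyltransferase fibrillarin, and HEATR1, a factor of ribosomal RNA synthesis, rose by 0.66 ± 0.11 and 0.88 ± 0.14 SE on the log2 scale (adjusted p = 0.00232 and 0.00138).

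Of 23 small non-coding RNAs, 10 fell and 0 rose (median -0.63). RNU11, of the minor spliceosome, read 6.59, 6.92, 6.38 and 5.92 on the ICG-001 arrays, against 8.30, 8.34 and 8.47 on the DMSO arrays, with no overlap (a log2 change of -1.85 ± 0.20 SE, adjusted p = 1.77e-04, -0.92 from the authors' table). A second RNU11 probe also fell. RNY5, a Y RNA, was 3.52-fold lower (a log2 change of -1.82 ± 0.20 SE, adjusted p = 2.21e-04, -0.70 from the authors' table). RNU1-1, a copy of U1, fell (a log2 change of -0.94 ± 0.14 SE, adjusted p = 9.25e-04), and RNU1-3, a near-identical copy, cannot be read apart from it. The labelling reaction starts from poly(A) tails, which these RNAs usually lack, so the form measured here is not known. Among the small RNAs, the number that fell was 6 without the DMSO pair, 4 without DMSO array 3, 5 without the ICG-001 pair and 6 with 75th percentile scaling. Of 33 splicing factors, 4 rose and 3 fell. Among the splicing factors, the number that rose was 0 without the DMSO pair, 1 without DMSO array 3, 2 without ICG-001 array 1 and 2 without ICG-001 array 2, and the number that fell was 0 without the DMSO pair, 1 without DMSO array 3, 1 without ICG-001 array 1, 1 without ICG-001 array 2, 1 without the ICG-001 pair, 5 without 24 h DMSO array 1, 5 without the 24 h DMSO pair, 1 without 24 h ICG-001 array 3 and 8 from the authors' table.

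Some other large falls were in genes of no list. NACC1, a BTB-domain transcriptional repressor, read 6.74, 6.68, 6.65 and 6.39 on the ICG-001 arrays, against 8.60, 8.64 and 8.47 on the DMSO arrays (a log2 change of -1.90 ± 0.15 SE, adjusted p = 2.59e-05, -0.997 from the authors' table). YWHAE, the 14-3-3 epsilon adaptor, read 8.87, 9.15, 9.12 and 9.43 on the ICG-001 arrays, against 11.19, 11.20 and 10.55 on the DMSO arrays (a log2 change of -1.77 ± 0.20 SE, adjusted p = 2.21e-04). Neither gene's groups overlapped, and a second probe of each also fell. VAPA, a tether of the endoplasmic reticulum to other membranes, was 3.26-fold lower (a log2 change of -1.70 ± 0.17 SE, adjusted p = 1.31e-04, -0.74 from the authors' table). POP1, a protein of RNase P and RNase MRP, was 3.07-fold lower (a log2 change of -1.62 ± 0.13 SE, adjusted p = 2.59e-05, -0.84 from the authors' table). STK32A, a protein kinase, was 3.23-fold lower (a log2 change of -1.69 ± 0.14 SE, adjusted p = 3.10e-05, -0.88 from the authors' table). TRIM47, a ubiquitin ligase, was 3.15-fold lower (a log2 change of -1.66 ± 0.11 SE, adjusted p = 1.19e-05, -0.46 from the authors' table), and ZNF679, a zinc finger gene, 3.52-fold lower (a log2 change of -1.82 ± 0.35 SE, adjusted p = 0.00378, -0.93 from the authors' table).

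Interferon and antigen genes were divided, with 5 up and 7 down of 31, against 14% and 11.7% of all genes. ISG20, an exonuclease against viral RNA, read 6.92, 7.02, 6.87 and 6.64 on the ICG-001 arrays, against 5.45, 5.24 and 5.50 on the DMSO arrays, with no overlap (a log2 change of 1.48 ± 0.15 SE, adjusted p = 1.29e-04, 0.44 from the authors' table). IRF1, a factor of interferon responses, rose (a log2 change of 0.94 ± 0.18 SE, adjusted p = 0.00423, 0.23 from the authors' table), while HLA-B, HLA-C and ISG15 did not pass. The 7 that fell were B2M, IRF9, IFI44, IFIT1, IFIT3, IFITM2 and IFITM3. Among the interferon and antigen genes, the number that rose was 3 without the DMSO pair, and the number that fell was 2 without the DMSO pair, 4 without DMSO array 3 and 4 without ICG-001 array 1. Of 14 NF-kappaB genes, 1 rose and 2 fell.

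Markers of other cell types were read by list. Of the endothelial list only EMCN was tested, and it did not pass (log2 change -0.22). Of 4 immune markers tested, 1, the lysosomal CD68, fell (a log2 change of -0.49 ± 0.12 SE, adjusted p = 0.0139, adjusted p 0.101 without the DMSO pair and 0.0504 without DMSO array 3), with 2 other probes that did not pass and opposed each other in sign. The summed signal of the immune markers was 929.3 to 1191 with ICG-001, against 1386 to 1521 with DMSO. Of 3 epithelial markers 2 fell, ESRP1 (log2 change -0.56, adjusted p 0.0564 without the DMSO pair, -0.20 from the authors' table) and CDH1, with a summed signal of 311.8 to 402.5 with ICG-001 and 549.7 to 563.8 with DMSO. Of 6 retinal pigment epithelium markers 3 rose, with a summed signal of 4284 to 4592 with ICG-001 and 3207 to 3376 with DMSO. BEST1, a chloride channel of that epithelium, was 2-fold higher (a log2 change of 1.00 ± 0.12 SE, adjusted p = 3.32e-04), and SERPINF1, a secreted neurotrophic factor, 1.61-fold higher (a log2 change of 0.69 ± 0.12 SE, adjusted p = 0.00253). Of 5 Schwann cell and neural markers 3 rose, SCRG1, CDH19 and the tubulin TUBB3 (log2 change 0.46, adjusted p 0.148 without the DMSO pair, 0.111 without DMSO array 3, 0.108 without ICG-001 array 1 and 0.0571 without ICG-001 array 2), with a summed signal of 5075 to 6140 with ICG-001 and 3136 to 3466 with DMSO. Each of these sums includes the called members of its list, so it is not a reading apart from them. Melanoma cells are known to share several of these genes, and a part of other cells in the results was not tested.

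The same comparison was made at 24 h on separate arrays, where 1602 genes rose (13.7%) and 1231 fell (10.5%). Of the 3010 genes called at 48 h, 1912 (63.5%) were called in the same direction at 24 h, which was 67.5% of the 2833 called at 24 h, and 2 were called in the opposite direction. The sign was the same for 97.5% of the 48 h calls, and the log2 change was larger at 48 h for 71.4%. The difference of the effects, 48 h minus 24 h, passed the test for 0 genes in limma (lowest adjusted p 0.743), and 660 genes (5.65%) had an unadjusted p below 0.05. Without 24 h DMSO array 1, 1 gene passed, C6orf62, at a difference of -2.20 (adjusted p = 0.0178). It was named after its value was seen. Between DMSO at 48 h and DMSO at 24 h, 4 genes passed (0.0342%).

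The members below are given at 24 h and then at 48 h. They were chosen with results of these data known, and the intervals are not adjusted for the number of genes tested. ASNS had log2 changes of 3.11 and 3.63, DDIT4 of 1.90 and 2.74, and SCRG1 of 2.96 and 3.75. The differences were 0.52 ± 0.17 SE (95% confidence interval 0.15 to 0.89), 0.83 ± 0.24 SE (0.31 to 1.36) and 0.79 ± 0.17 SE (0.43 to 1.16), none past the adjusted threshold. The synthetase list had 12 members up at 24 h and 12 at 48 h, with medians of 0.76 and 0.77, and the ATF4 list 18 and 18. GAGE and XAGE had 10 down at both times, with medians of -1.62 and -1.62. Mitosis genes had 24 down and 0 up at 24 h, and 8 down and 4 up at 48 h, with medians of -0.45 and -0.20. BIRC5 had log2 changes of 0.02 and 0.53 (difference 0.51 ± 0.18 SE, interval 0.10 to 0.91), DDIT3 of -0.14 and 0.66, and MMP16 of -0.11 and 0.99 (difference 1.10 ± 0.24 SE, interval 0.58 to 1.63). None of these differences passed the adjusted test, so the counts at the 2 times are not shown to differ.

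**Figure D4:**
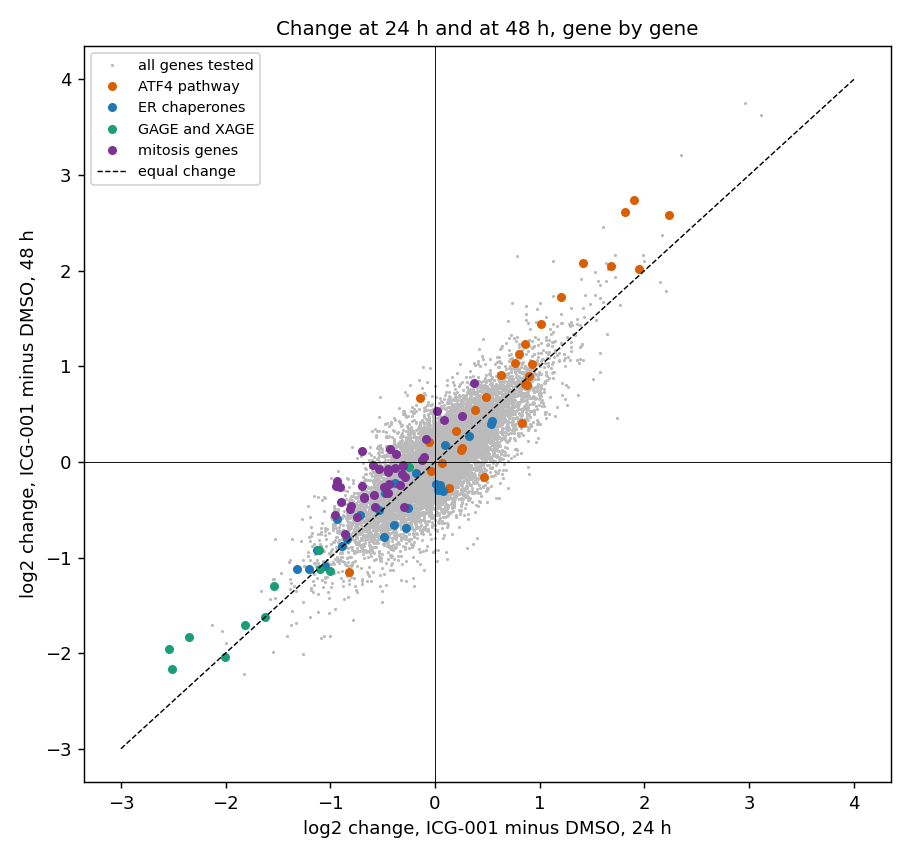
Log2 change of ICG-001 minus DMSO at 24 h (horizontal axis) and at 48 h (vertical axis) for every gene tested (grey), with the ATF4 list (orange), the endoplasmic reticulum chaperones (blue), GAGE and XAGE genes (green) and mitosis genes (purple). The dashed line marks equal change, and the mitosis genes lie mostly above it, with a median of -0.45 at 24 h and -0.20 at 48 h.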

How the data were processed

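RNA of Mel202 cells, amplified from an oligo(dT) primer per the labels' protocols, was read on Illumina bead arrays with 47323 probes. The authors deposited raw signal intensity values and a detection p-value for each probe and array, not normalized per the file headers. They also deposited a table of normalized values close to a log2 scale for 22579 probes, for which the submitters' processing notes name lumi with no version. How that table was background-corrected, normalized and filtered, and the array software, is not stated.

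The intensities were background-corrected with limma 3.58.1 (R 4.3.3, neqc, offset 16, with the negative controls inferred from the detection p-values), then quantile-normalized and log2-transformed. The filter kept probes detected on 3 or more arrays at p below 0.05 (22158, of which 15665 had 1 gene symbol in the platform annotation), and the brightest probe stood for a gene (11679 genes). Arrays that shared a title number were averaged. A means model of the 4 groups was fitted with limma over all 14 arrays, so that the 24 h groups shared the estimate of the spread (6 residual degrees of freedom). Tests were two-sided and moderated, p-values were adjusted by the Benjamini-Hochberg method over all genes tested, and the threshold was 0.05. The test was checked on simulated data. Where a gene was above background on no array of a group, the fold was set against the higher of the lowest detected signal of each array and the probe's own, on the means of log2 values. Such a bound holds only for these normalized signals, and another processing can give a smaller fold.

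The genes named were the 20 largest rises and 20 largest falls with non-overlapping replicates, the 6 or fewer called members with the lowest p in each of 57 lists, 12 fixed genes, and the markers of other cell types above background. Members, lists and rules were chosen with earlier results of these data known. Alternatives changed the background correction, offset, scaling, filter, probe choice, replicate unit, weights, the arrays ending in b and each replicate in turn. Motifs were searched in RefSeq promoters (GRCh38.p14). The number of arrays limits the precision, and the median SE of a log2 change was 0.15.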

Additional observations from a re-analysis of the deposited data

Results flagged for a closer look

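Probes without a single gene symbol were not part of the comparisons above, and 411 of them rose and 368 fell at 48 h when all probes were tested in limma (12% of 6493, against 21.5% of the probes with 1 symbol). The largest rises among them were of ILMN_3214893 (log2 change 2.36, adjusted p = 9.64e-05) and ILMN_1736539 (2.24, adjusted p = 2.42e-05). The largest falls were of ILMN_1678132 (-2.22, adjusted p = 0.00696) and ILMN_1659312 (-2.14, adjusted p = 4.01e-04). These 4 probes were chosen after their values were seen, and their genes are not named in the annotation used here.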

How the results depend on the processing

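The comparison at 48 h was repeated under 25 alternatives. The 3010 calls became 4518 with the title letter b as a term, of which 2150 fell. With 1 replicate left out they numbered 1398 to 3305, with 774 to 1789 that rose and 624 to 1516 that fell, and the lowest values were those without the DMSO pair, where the lone DMSO array is assumed to vary like the other groups. Without DMSO array 3 they numbered 1739, with 1046 that rose and 693 that fell. Under the remaining alternatives the count stayed within 1.5 times the 3010. No call turned to a call in the opposite direction under any of the 25, 87.8% of the calls were also made from the authors' table and 87.6% without the arrays ending in b. With scaling to the 75th percentile in place of quantile normalization, the median log2 change over all genes was 0.10 and 63.2% of the calls were rises, against 54.5%. The difference between times passed for 0 genes under every alternative except without 24 h DMSO array 1, where 1 gene passed. Of the 295 named genes past the threshold, 135 kept their call under every alternative, and each of the others lost it under at least 1. With the mean of a gene's probes in place of the brightest, the log2 change reversed for ERBB3 (-0.0171), MSMO1 (-0.205), MXI1 (-0.160), RAD51C (0.116) and TEAD4 (-0.0908), none of which then passed. Their probes differ in sign. Of the 26 named genes that did not pass, 8 passed under at least 1 alternative. No paired analysis was possible because the title numbers are not shared between groups. The correlation between the arrays of a pair around their group means was 0.17.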
